A study of Mus musculus with 12 samples.

Results

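Vwf, Gja5, Bmx, Sox17, Slc6a2, Ackr1, Prox1, Lyve1 and Mmrn1 are 9 genes used to recognise the endothelium of large blood vessels and of lymphatic vessels, and they were taken by symbol from a lung count table of 55487 genes. All 9 were among the 18407 genes with enough counts to be tested. The lungs came from C57BL/6NCr mice, a substrain of C57BL/6, at 4 ages, written by their months as 6M, 12M, 20M and 30M. Each age had 3 libraries of poly-A RNA from whole tissue. The labels name no treatment, sex or genetic change, and age is the only factor they give that differs between the groups. Whether each library is its own animal is not stated there, so the p-values reflect how much these libraries vary, which may be technical.

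Blood returning from the body is spread through the lung's capillaries by pulmonary arteries and collected by pulmonary veins, and lymphatic vessels drain fluid and immune cells from the tissue around airways and vessels. Endothelial cells of these vessels carry different programs: arterial cells depend on NOTCH and SOX17, venous cells on NR2F2, and lymphatic cells on PROX1, which both starts and maintains their identity. Capillary cells make up most of the lung's endothelium, so transcripts of arterial, venous and lymphatic cells come from a small part of a whole-lung sample.

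Library totals ran from 12152066 to 15058628 counts. Levels are given as CPM, counts scaled to a common library size, and 1 CPM stood for 11.8 to 16 counts. Libraries 20M_221, 20M_222 and 30M_220 stood apart: the log2 ratio of each gene to the 6M mean increased with the gene's GC content (Spearman rho 0.358, 0.465 and 0.328 across genes). In 12M_208 this rho was 0.229, and in the other 8 libraries it lay between -0.0869 and 0.0518. The libraries of steepest trend were thus all at 20M or 30M and none at 6M. In comparisons of those ages against 6M, this trend and age are partly confounded. Library 20M_222 also held 2980 CPM of 6 skeletal muscle genes, against 9.38 to 39.8 CPM in the other libraries. At 20M against 6M, the 3 of them that could be tested had a median log2 change of 5.81, and 0 were called. At 30M against 6M, whose groups do not include 20M_222, 0 of the 3 were called. That library still entered the spread used there, because all 12 libraries share 1 fit (Acta1 log2 change 2.5, SE 4.78). These 0 calls therefore say little about muscle RNA at 30M. GC content of the 9 genes ran from 42.3% for Mmrn1 to 56.5% for Vwf. In whole tissue, more cells of a type and more RNA per cell cannot be told apart.

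No difference between ages in any of the 9 genes passed the test on these libraries. Vwf, Ackr1, Sox17 and Slc6a2 had higher mean levels at 30M than at 6M, while Gja5, Bmx, Prox1 and Mmrn1 had nearly equal means. Lyve1 had a slightly lower mean at 30M. In edgeR's quasi-likelihood test with Benjamini-Hochberg adjustment over all tested genes, 0 of the 9 were called (adjusted p under 0.05) at 30M against 6M, where 1.96% of all tested genes were called. At an unadjusted p under 0.05 there were 2 members, Vwf and Sox17, beside 11.6% of all genes. DESeq2 likewise called 0 of 9, beside 4.09% of all genes, with 2 members and 12% of all genes at an unadjusted p under 0.05. Limma voom with quality weights called 0 beside 3.23% of all genes, with 1 member and 13.6% of all genes at an unadjusted p under 0.05. The median log2 change of the 9 genes was 0.09, against 0.00284 for all tested genes.

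Of the 9 members, 0 were called at 20M against 6M (0.0163% of all genes), at 12M against 6M (0%), at 20M against 12M (0%) and at 30M against 20M (0.212%). In edgeR 0 of the 9 also had an unadjusted p under 0.05 in each of these 4 comparisons, where 3.6% to 11.2% of all genes did. DESeq2 called 0 members in each, beside 0.0489% to 1.73% of all genes. It had 1 member at an unadjusted p under 0.05 at 20M against 6M (8.43% of all genes). In the other 3 comparisons it had 0, beside 3.9% to 12.1% of all genes. Limma voom called 0 in each, beside 0% to 4.22% of all genes. In voom 2 members had an unadjusted p under 0.05 at 20M against 6M and 1 at 20M against 12M, where 28.8% and 27.6% of all genes did.

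Over the 4 ages jointly edgeR called 0 members beside 1.11% of all genes, with 1 member, Sox17, and 11.2% of all genes at an unadjusted p under 0.05. DESeq2 called 0 in that test (4.28% of all genes), with 1 member and 13.7% of all genes at an unadjusted p under 0.05. Voom called 0 (9.01% of all genes), with 2 members and 32.3% of all genes at an unadjusted p under 0.05. For a steady change per month edgeR called 0 members beside 2.68% of all genes. There 3 members had an unadjusted p under 0.05 (Sox17, Vwf and Ackr1), and so did 13.3% of all genes. On that slope DESeq2 called 1 member, Sox17, beside 4.89% of all genes, with 3 members and 14.2% of all genes at an unadjusted p under 0.05. Voom called 0 on the slope beside 3.18% of all genes, with 3 members and 14.9% of all genes at an unadjusted p under 0.05.

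Vwf encodes von Willebrand factor, the clotting protein that endothelial cells store in Weibel-Palade bodies and that tethers platelets to injured vessel walls. In the lung it is richer in large vessels than in capillaries, and megakaryocytes make it too. The gene is ENSMUSG00000001930, on the plus strand of chromosome 6 from 125546774 to 125686679 (GRCm38). Vwf was at 305, 448 and 386 CPM at 6M, 311, 379 and 749 at 12M, 367, 730 and 924 at 20M, and 710, 393 and 1129 at 30M. The 6M libraries lay close together, whereas each later age held libraries near the 6M level and libraries well above it, so the ages overlapped.

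Vwf averaged 744 ± 369 CPM at 30M and 379 ± 71.6 CPM at 6M (SD, n = 3 each). This was a log2 change of 0.97 (SE 0.43, 95% interval 0.02 to 1.92), with an adjusted p of 0.418 in edgeR's test. At 20M against 6M Vwf had a log2 change of 0.83 (SE 0.43), with an edgeR adjusted p of 0.646. The slope over all 12 libraries was 0.0416 log2 units per month (SE 0.0162), with an edgeR adjusted p of 0.249. The 3 libraries with the steepest GC trend held 730 to 1129 CPM of Vwf, and the other 9 held 305 to 749 CPM. Without those 3 libraries Vwf had a 30M against 6M log2 change of 0.54 and a slope of 0.0179 per month, with edgeR adjusted p of 0.649 and 0.699. Leaving out 30M_220 alone also gave 0.54.

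Slc6a2 and Ackr1 mark the venous side. Slc6a2 encodes the noradrenaline transporter, best known from sympathetic nerve endings. In lung endothelium it clears noradrenaline from the passing blood. It is ENSMUSG00000055368, on the plus strand of chromosome 8 from 92960079 to 93001667. Slc6a2 was at 61.9, 162 and 165 CPM at 6M, 75.3, 123 and 235 at 12M, 111, 136 and 228 at 20M, and 203.4, 107 and 280 at 30M. The libraries of each age spread widely, from 61.9 to 165 CPM at 6M and from 107 to 280 CPM at 30M, and every age overlapped every other. Slc6a2 averaged 197 ± 86.8 CPM at 30M and 130 ± 58.8 CPM at 6M (SD, n = 3 each), giving 0.60 on the log2 scale (SE 0.50, 95% interval -0.50 to 1.70, edgeR adjusted p = 0.761). Without 6M_201 the log2 change was 0.26, and without 30M_220 it was also 0.26.

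Ackr1 encodes the atypical chemokine receptor 1, the Duffy antigen, which binds inflammatory chemokines on venules without signalling and which erythroid cells also carry. It is ENSMUSG00000037872, on the minus strand of chromosome 1 from 173331886 to 173333750. Ackr1 had 4, 12 and 2 counts at 6M, 4, 7 and 9 at 12M, 14, 8 and 25 at 20M, and 11, 19 and 19 at 30M. These counts are few, and the gene passed the filter on low counts mainly through its older libraries. Ackr1 averaged 1.22 ± 0.336 CPM at 30M and 0.484 ± 0.444 CPM at 6M (SD, n = 3 each), a log2 change of 1.34 (SE 0.65, 95% interval -0.07 to 2.74, edgeR adjusted p = 0.473). The groups overlapped, because 6M_202 had 0.991 CPM and 30M_216 had 0.887 CPM. Without 6M_202 the Ackr1 log2 change was 2.35, with an edgeR adjusted p of 0.23. It was 0.93 without 6M_203 (edgeR adjusted p = 0.917) and 1.08 without 6M_201 (edgeR adjusted p = 0.736). The sum of 5 erythroid markers was 460 to 1010 CPM at 6M, 496 to 2070 CPM at 12M, at most 432 CPM at 20M and 1040 to 1140 CPM at 30M. At 20M, where this sum was lowest, Ackr1 averaged 1.14 ± 0.675 CPM. The part of erythroid RNA in the Ackr1 level was not tested.

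**Figure D1:**
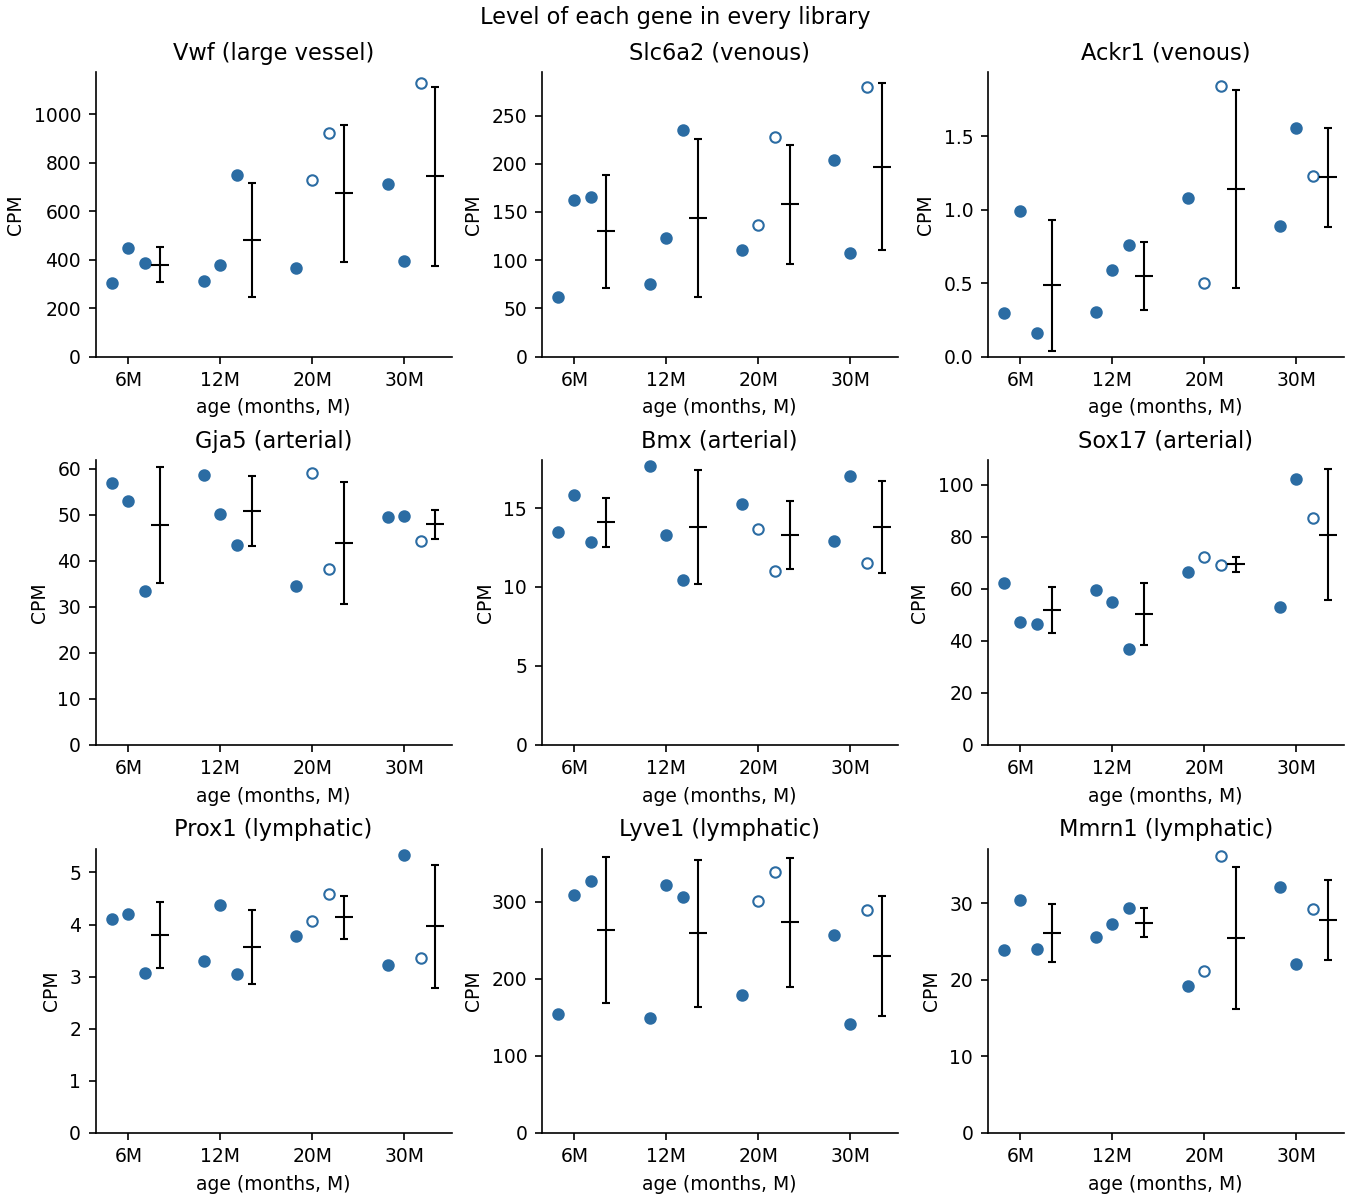
Level of each of the 9 genes in CPM (vertical axes, each with its own scale) in the 12 libraries, by age in months (horizontal axes). Points are libraries, hollow for 20M_221, 20M_222 and 30M_220, and bars are the mean ± SD of 3 libraries. Vwf libraries spread from 393 to 1129 CPM at 30M but only from 305 to 448 CPM at 6M, and Bmx stayed between 10.5 and 17.7 CPM in all 12 libraries.

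Gja5, Bmx and Sox17 mark arterial endothelium, and 2 of the 3 showed nearly equal means at all ages. Gja5 encodes connexin 40, a gap junction protein that joins arterial endothelial cells to each other and is also made in atrial heart muscle. It is ENSMUSG00000057123, on the plus strand of chromosome 3 from 96904693 to 97077416. Gja5 was at 56.9, 52.9 and 33.4 CPM at 6M, 58.5, 50.2 and 43.3 at 12M, 34.4, 59.1 and 38.2 at 20M, and 49.6, 49.7 and 44.3 at 30M. Every age overlapped every other. Gja5 averaged 47.9 ± 3.09 CPM at 30M and 47.7 ± 12.6 CPM at 6M (SD, n = 3 each). The edgeR estimate was a log2 change of 0.00 (SE 0.22, adjusted p = 0.998), and its 95% interval allowed a ratio between 0.716 and 1.40.

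Bmx encodes a TEC family tyrosine kinase found in arterial endothelium and in some myeloid cells. It is ENSMUSG00000031377, on the minus strand of chromosome X from 164192842 to 164258193. Bmx was at 13.5, 15.8 and 12.9 CPM at 6M, 17.7, 13.3 and 10.5 at 12M, 15.2, 13.7 and 11 at 20M, and 12.9, 17.1 and 11.5 at 30M. The means of the 4 ages lay between 13.3 and 14.1 CPM, closer together than libraries of 1 age. At 30M against 6M the log2 change of Bmx was -0.03 (SE 0.22, edgeR adjusted p = 0.987), with a 95% interval for the ratio of 0.703 to 1.37.

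Sox17 encodes a transcription factor that arterial endothelium needs to form and to keep its identity. It is ENSMUSG00000025902, on the minus strand of chromosome 1 from 4490931 to 4497354. Sox17 was at 62.2, 47.3 and 46.4 CPM at 6M, 59.7, 54.7 and 36.8 at 12M, 66.6, 72.4 and 69.1 at 20M, and 53, 102 and 87.2 at 30M. All 3 libraries at 20M lay above all 3 at 6M and all 3 at 12M, where 15.4% and 15% of all tested genes had groups that did not overlap. At 30M 1 library, at 53 CPM, lay inside the 6M range of Sox17.

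Sox17 averaged 80.8 ± 25.2 CPM at 30M and 52 ± 8.9 CPM at 6M (SD, n = 3 each), a log2 change of 0.64 (SE 0.23, 95% interval 0.14 to 1.13, edgeR adjusted p = 0.253). It had the smallest edgeR p of the 9 genes in this comparison, over the 4 ages jointly and on the slope. Its slope was 0.0299 log2 units per month (SE 0.00871), or 0.72 over the 24 months, with an edgeR adjusted p of 0.0936. DESeq2 gave a slope of 0.0297 with an adjusted p of 0.0378. Without 30M_216 the edgeR slope was 0.0379 with an adjusted p of 0.0223, and without 30M_218 it was 0.0228 with an adjusted p of 0.309. Without 20M_221, 20M_222 and 30M_220 the edgeR slope was 0.0263 with an adjusted p of 0.291. With a term for these libraries the edgeR adjusted p was 0.167, and with the GC trend removed it was 0.139. So the call on the slope turned on the tool and on single 30M libraries, and edgeR made none under these GC settings.

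**Figure D2:**
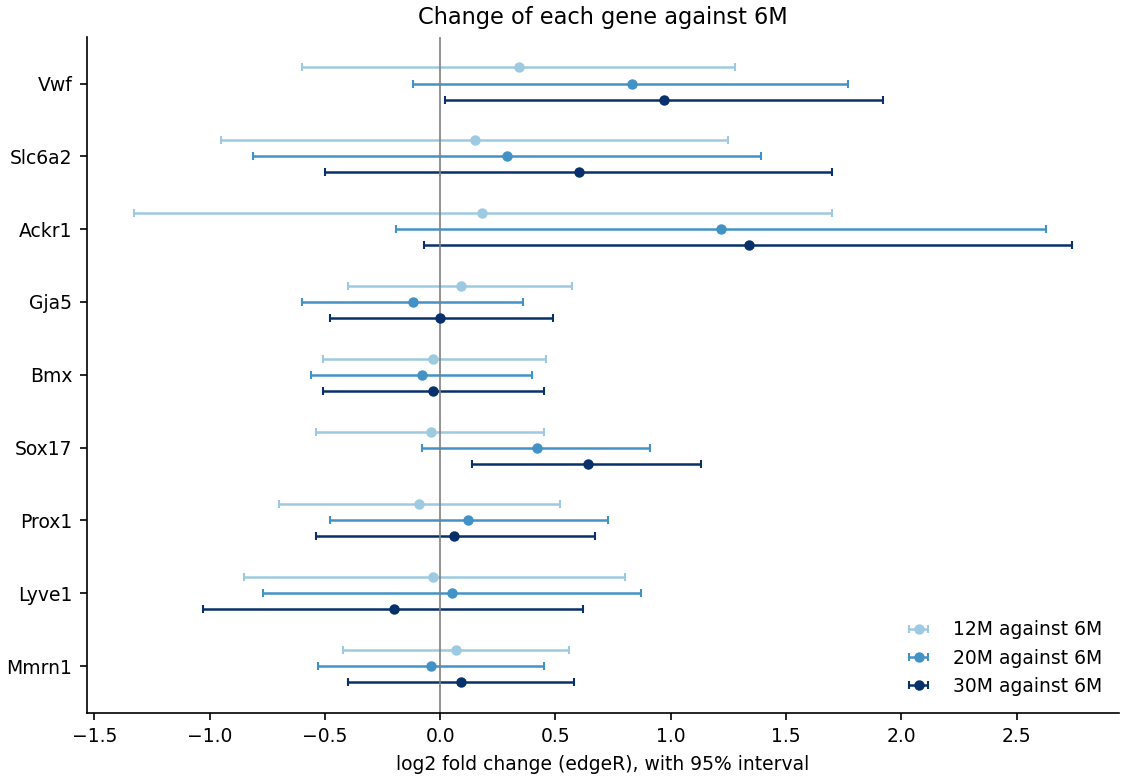
Log2 change of each of the 9 genes (vertical axis) at 12M, 20M and 30M against 6M (horizontal axis), from edgeR; points are estimates and lines are 95% intervals. At 30M the intervals of Vwf (0.02 to 1.92) and Sox17 (0.14 to 1.13) lay above 0 before adjustment over all genes, and those of the other 7 genes crossed 0.

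Prox1, Lyve1 and Mmrn1 mark lymphatic endothelium, and their means differed little with age. Prox1 encodes the homeobox factor that sets lymphatic identity, and heart muscle and neuroendocrine cells also use it. It is ENSMUSG00000010175, on the minus strand of chromosome 1 from 190118035 to 190170714. Prox1 was at 4.1, 4.21 and 3.07 CPM at 6M, 3.3, 4.38 and 3.04 at 12M, 3.77, 4.06 and 4.58 at 20M, and 3.23, 5.33 and 3.36 at 30M. Every library held 3.04 to 5.33 CPM, with no age apart from the others. Prox1 averaged 3.97 ± 1.18 CPM at 30M and 3.8 ± 0.629 CPM at 6M (SD, n = 3 each), a log2 change of 0.06 (SE 0.28, edgeR adjusted p = 0.971). The 95% interval allowed a ratio between 0.687 and 1.59.

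Lyve1 encodes a membrane receptor for hyaluronan, the sugar polymer of the tissue matrix, and immune cells use it to enter lymphatic vessels. Some macrophages around vessels carry it, and in the mouse lung it has also been found on blood vessel endothelium. It is ENSMUSG00000030787, on the minus strand of chromosome 7 from 110850607 to 110863239. Lyve1 was at 154, 309 and 327 CPM at 6M, 149, 321 and 306 at 12M, 178, 301 and 339 at 20M, and 256, 141 and 289 at 30M. Each age had 1 library at 141 to 178 CPM and 2 libraries at 256 CPM or more. Lyve1 averaged 229 ± 77.9 CPM at 30M and 263 ± 95 CPM at 6M (SD, n = 3 each), a log2 change of -0.20 (SE 0.38, 95% interval -1.03 to 0.62, edgeR adjusted p = 0.922). Without 30M_218 the log2 change was 0.05.

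Mmrn1 encodes multimerin 1, an adhesive protein that binds clotting factor V and is stored in platelets and endothelium. It is ENSMUSG00000054641, on the plus strand of chromosome 6 from 60924976 to 60989378. Mmrn1 was at 23.8, 30.5 and 24 CPM at 6M, 25.6, 27.3 and 29.4 at 12M, 19.2, 21.1 and 36.1 at 20M, and 32.1, 22 and 29.2 at 30M. The 20M libraries held both the lowest and the highest of the 12 values. Mmrn1 averaged 27.8 ± 5.21 CPM at 30M and 26.1 ± 3.78 CPM at 6M (SD, n = 3 each), a log2 change of 0.09 (SE 0.23, edgeR adjusted p = 0.945). The 95% interval allowed a ratio between 0.759 and 1.49.

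Levels of different genes were compared as CPM per kilobase of exon, averaged over the 12 libraries. Lyve1 was highest at 87.7 ± 26.5 (SD), followed by Vwf at 35.4 ± 16.9, Slc6a2 at 25 ± 10.8, Sox17 at 13.2 ± 3.82 and Gja5 at 8.27 ± 1.55. Then came Mmrn1 at 4.55 ± 0.849, Bmx at 4.45 ± 0.742, Ackr1 at 0.605 ± 0.371 and Prox1 at 0.461 ± 0.0837. Lyve1 exceeded Vwf, Sox17 exceeded Gja5, Gja5 exceeded Mmrn1, and Bmx exceeded Ackr1 in 12 of 12 libraries. Vwf exceeded Slc6a2 in 11 of 12 libraries and Slc6a2 exceeded Sox17 in 9. Mmrn1 and Bmx were each the higher in 6 libraries, and Ackr1 exceeded Prox1 in 7, so these neighbours did not differ beyond their spread.

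The lymphatic genes were far apart from each other in level. Per kilobase, Lyve1 was 76 to 306 times as high as Prox1 in the same library, with a median of 212. At every age the same library was lowest for 4 of the 9 genes, namely Vwf, Slc6a2, Lyve1 and Mmrn1. These libraries were 6M_201, 12M_206, 20M_213 and 30M_218. How many of all tested genes share this pattern was not counted, so it is not read as particular to these 4. At 12M, 20M and 30M, but not at 6M, the library also had the lowest GC rho of its age (-0.0869, -0.00453 and 0.0343).

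Correlations of log2 CPM over the 12 libraries were computed for all 36 pairs of members, with Benjamini-Hochberg adjustment over the 36. By Pearson's r, 8 had a permutation p under 0.05 and 1 passed the adjustment, between Vwf and Slc6a2. By Spearman's rho 2 passed, this pair and Bmx with Slc6a2. For Vwf and Slc6a2 r was 0.869 (permutation p = 0.0003, adjusted p = 0.0108). Their rho was 0.888 (permutation p = 0.00036, adjusted p = 0.013). Without 30M_220 and 20M_222, the libraries farthest from the median of Vwf, r was 0.798. With the mean of each age subtracted r was 0.874 (exact permutation p within ages = 0.00154, adjusted p = 0.0417), and over the 9 libraries without the steepest GC trend it was 0.884. Those 9 still included 12M_208, which had a GC rho of 0.229 and the highest Vwf (749 CPM) and Slc6a2 (235 CPM) among them. Vwf and Slc6a2 thus varied together over all 12 libraries and within ages. The part of the GC trend in this was not tested.

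Lyve1 had a higher r with the venous gene Slc6a2 than with the lymphatic gene Prox1, and the difference between the correlations was not tested. Prox1 had only 36 to 65 counts per library, and counting noise at such counts can lower any r with it. Lyve1 and Slc6a2 had an r of 0.773 (permutation p = 0.0041, adjusted p = 0.0738) and a rho of 0.608 (permutation p = 0.0387, adjusted p = 0.232). Without 6M_201 and 12M_206 their r was 0.584. With age means subtracted their r was 0.901 (exact permutation p = 0.00231, adjusted p = 0.0417), and without the 3 GC libraries it was 0.785. Lyve1 and Prox1 had an r of -0.227 (permutation p = 0.471, adjusted p = 0.652) and a rho of -0.014 (permutation p = 0.973, adjusted p = 1). Lyve1 and Mmrn1 had an r of 0.541 (permutation p = 0.0704, adjusted p = 0.233) and a rho of 0.503 (permutation p = 0.0994, adjusted p = 0.26). For Prox1 and Mmrn1 r was -0.133 (permutation p = 0.679, adjusted p = 0.74) and rho was -0.0769 (permutation p = 0.818, adjusted p = 0.885).

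Bmx ran opposite to Slc6a2, with a rho of -0.804 (permutation p = 0.00251, adjusted p = 0.0452) and an r of -0.711 (permutation p = 0.00985, adjusted p = 0.0886). Without 6M_201 and 12M_206 their r was -0.827, and with age means subtracted it was -0.75 (exact permutation p = 0.0201, adjusted p = 0.125). It was -0.599 without the 3 GC libraries. Bmx had similar values with Vwf (r -0.72, permutation p = 0.00964, adjusted p = 0.0886; rho -0.622, adjusted p = 0.232) and Lyve1 (r -0.684, permutation p = 0.0165, adjusted p = 0.119; rho -0.629, adjusted p = 0.232). With the venous gene Ackr1 its r was -0.141 (permutation p = 0.66, adjusted p = 0.74) and its rho -0.0979 (adjusted permutation p = 0.861). No pair of the 3 arterial genes passed the adjustment: r was 0.396 for Gja5 and Bmx, 0.134 for Gja5 and Sox17, and 0.30 for Bmx and Sox17, with adjusted permutation p of 0.406, 0.74 and 0.512. Their rho values were 0.58, 0.196 and 0.266, with adjusted permutation p of 0.235, 0.674 and 0.541. Sox17 and Lyve1 had an r of -0.433 over all 12 libraries (permutation p = 0.161, adjusted p = 0.342) and of -0.788 over the 9 without the steepest GC trend, where this pair passed the adjustment.

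**Figure D3:**
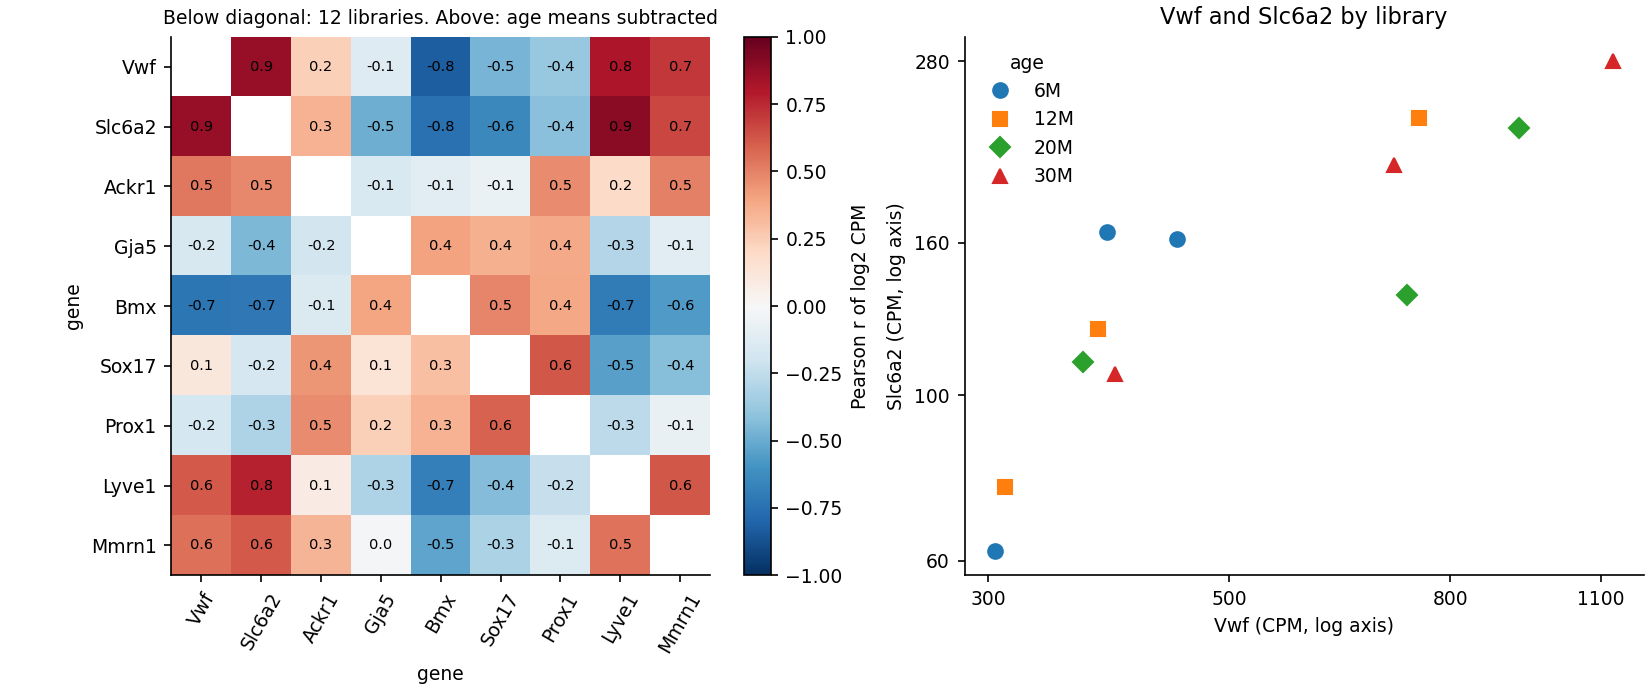
Left, Pearson's r of log2 CPM for each pair of the 9 genes, over the 12 libraries below the diagonal and with the mean of each age subtracted above it. Right, Vwf against Slc6a2 in CPM on log axes, with 1 point per library coloured by age; r was 0.869 over all libraries.

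Among the tested genes, with predicted genes left out, the profiles most like each member over the 12 libraries were listed. They were ranked by Pearson's r of log2 CPM, as a description without a p. Predicted genes were those with symbols that start with Gm and a digit, end in Rik, or start with AC, AL or BC and a digit. Vwf was closest to Tmem104 (0.966), Rbck1 (0.963) and Mrtfa (0.962). Slc6a2 was closest to Man2a1 (0.975), an enzyme of N-glycan trimming, Il4ra (0.928), the interleukin 4 receptor chain, and Acer2 (0.909). Ackr1 was closest to Cpxm2 (0.914), Atp5k (0.893) and Tmem258 (0.89), at counts that make its r uncertain. No member was among the 3 genes nearest to another member.

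For the arterial genes, Gja5 was closest to Bcl6b (0.841), an endothelial transcriptional repressor. Bmx was closest to Eef1akmt2 (0.92), Dhx36 (0.918) and Tbl1xr1 (0.909), and Sox17 to Zc3h12a (0.946), Tomm34 (0.937) and Loxl3 (0.93). For the lymphatic genes, Prox1 was closest to Tsfm (0.917), Mpi (0.916) and Adck1 (0.851), and Mmrn1 to Endod1 (0.892), Myadml2 (0.889) and Hs6st1 (0.889). Lyve1 was closest to Bdkrb2 (0.927), a bradykinin receptor, Ubqln4 (0.904) and Plat (0.902), the tissue plasminogen activator of endothelium. The highest of so many correlations over 12 libraries is high by selection alone, so these values only rank the genes.

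Other genes of the same vessels were examined in lists at 30M against 6M, where 356 of the 361 calls among all genes were higher and 5 were lower. Of 15 arterial genes 1 rose, Cxcl12, a chemokine made by arterial and stromal cells, and 0 fell, with a list median log2 change of 0.11. Cxcl12 averaged 242 ± 52.6 CPM at 30M and 111 ± 7.53 CPM at 6M, a log2 change of 1.13 (SE 0.26, edgeR adjusted p = 0.0441). Without the 3 libraries of steepest GC trend its log2 change was 0.934 and its edgeR adjusted p 0.142, and without 6M_203 alone they were 1.08 and 0.22. Gja4, which encodes connexin 37 and is the partner of connexin 40, averaged 57 ± 20.3 CPM at 30M and 33.5 ± 4.75 CPM at 6M (edgeR adjusted p = 0.248).

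Of 11 venous genes, edgeR called 0 in either direction, and the list median was 0.27. Prss23, a secreted protease, averaged 170 ± 18.1 CPM at 30M and 116 ± 20.7 CPM at 6M (edgeR adjusted p = 0.156). Of 13 lymphatic genes tested 0 were called at 30M against 6M, with a median of -0.02, and Nts had too few counts. On the slope edgeR called 2.68% of all tested genes, 461 of them higher and 33 lower. Of the lymphatic genes 1 fell there, Sema3a, a guidance molecule that lymphatic valves use (edgeR adjusted p = 0.0256). It averaged 42.1 ± 10.1 CPM at 30M and 72 ± 10.3 CPM at 6M. Without the 3 GC libraries its slope had an edgeR adjusted p of 0.0897, and without 6M_203 alone one of 0.0979. Of 6 genes of the VEGF-C pathway, which drives lymphatic growth, 0 were called. Its receptor Flt4 averaged 39.3 ± 12.2 CPM at 30M and 30.4 ± 1.93 CPM at 6M (edgeR adjusted p = 0.774). Ccl21a, on the lymphatic list, has near-identical copies, so its counts are uncertain.

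The partners of the members were read in the same way. Of 11 genes for Weibel-Palade bodies and the proteins that bind or cut VWF, 1 rose and 0 fell. It was Gp1ba, the platelet receptor for VWF, which averaged 6.79 ± 2.85 CPM at 30M and 1.44 ± 0.654 CPM at 6M, a log2 change of 2.23 (SE 0.42, edgeR adjusted p = 0.016). Without the 3 GC libraries Gp1ba had a log2 change of 1.85 and an edgeR adjusted p of 0.0678, and without 6M_203 alone they were 1.92 and 0.101. P-selectin (Selp), stored in the same bodies as VWF, averaged 6.12 ± 2.4 CPM at 30M and 2.67 ± 0.944 CPM at 6M (edgeR adjusted p = 0.288). The VWF-cutting protease Adamts13 averaged 0.779 ± 0.0947 CPM at 30M and 0.369 ± 0.258 CPM at 6M (edgeR adjusted p = 0.659).

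Of 6 tested chemokines that ACKR1 binds, 1 rose and 0 fell, with a list median of 0.75. It was Ccl5, which attracts T cells and monocytes and averaged 62.4 ± 7.56 CPM at 30M and 14 ± 1.68 CPM at 6M (log2 change 2.15, SE 0.40, edgeR adjusted p = 0.0198). Without the 3 GC libraries the Ccl5 log2 change was 2.24, with an edgeR adjusted p of 0.00552, and without 6M_203 alone it was 2.09 with an adjusted p of 0.137. Ccl2 averaged 5.01 ± 3.57 CPM at 30M and 1.97 ± 0.521 CPM at 6M (edgeR adjusted p = 0.511). Of 4 genes for breakdown and other uptake of noradrenaline 0 were called. Among them Maob averaged 49.8 ± 4.72 CPM at 30M and 59 ± 2.27 CPM at 6M, with an edgeR adjusted p of 0.492. Of 6 tested genes for making, cutting or binding hyaluronan 0 were called, and Cd44, its main receptor on leukocytes, averaged 175 ± 22.5 CPM at 30M and 135 ± 19.5 CPM at 6M (edgeR adjusted p = 0.32).

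**Figure D4:**
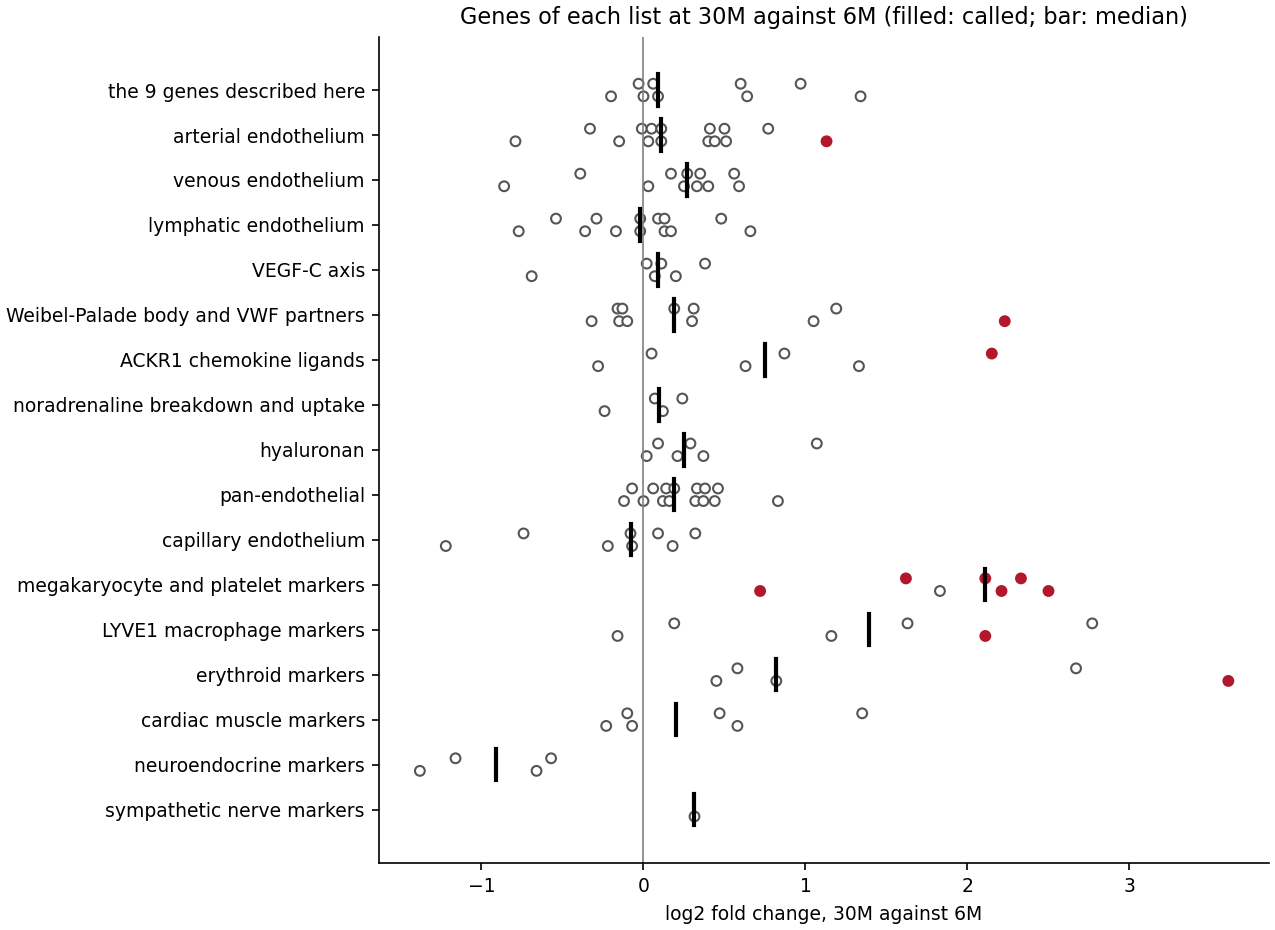
Log2 change at 30M against 6M (horizontal axis) of the tested genes of each list (rows), with the 9 members on top; filled points passed edgeR's test at an adjusted p under 0.05, and bars mark each list's median. The platelet list had a median of 2.11 with 6 of 7 genes called, while the members had a median of 0.09 with 0 of 9 called. The skeletal muscle list is not drawn.

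Endothelium as a whole was followed with 15 genes shared by all endothelial cells, of which 0 were called at 30M against 6M (median log2 change 0.19). Their summed level was 4110, 4040 and 5840 CPM at 30M and 4080, 4240 and 3790 CPM at 6M. The high 30M value was that of 30M_220, a library of steep GC trend, and the other 30M libraries lay inside the 6M range. Relative to the mean log2 CPM of these 15 genes, Vwf stood 1.60 ± 0.60 higher at 30M and 0.95 ± 0.29 higher at 6M (SD, n = 3 each). On that scale Sox17 stood at -1.53 ± 0.44 at 30M and -1.91 ± 0.22 at 6M, and Lyve1 at -0.04 ± 0.49 at 30M and 0.36 ± 0.64 at 6M. Of 8 capillary genes 0 were called at 30M against 6M, with a median of -0.07. On the slope, where 2.68% of all genes were called, 1 capillary gene fell, the peptide hormone gene Apln (edgeR adjusted p = 0.0435). Apln averaged 15.5 ± 3.28 CPM at 30M and 36.1 ± 7.79 CPM at 6M. Without 30M_218 the edgeR adjusted p of its slope was 0.153.

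Several members are also made by cells outside the endothelium, and markers of those cells were set beside them. Of 7 tested platelet and megakaryocyte markers 6 rose and 0 fell at 30M against 6M, and the list's summed level was 250 to 295 CPM at 30M and 87.8 to 92.5 CPM at 6M. Without the 3 GC libraries 4 of the 7 rose, and without 6M_202 or 6M_203 alone 3 did. Ppbp, a platelet chemokine, averaged 73.6 ± 7.55 CPM at 30M and 16 ± 1.88 CPM at 6M (log2 change 2.21, SE 0.30, edgeR adjusted p = 0.00335). Gp1bb had 0 counts in every library. At 20M the summed platelet level was 88.3 to 108 CPM, while Vwf was at 367 to 924 CPM there. The part of platelet RNA in the Vwf and Mmrn1 levels was not tested.

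For Lyve1, the markers of LYVE1-bearing macrophages were read. Of 6 such genes 1 rose, F13a1, the clotting factor XIII subunit of macrophages and platelets, and 0 fell. F13a1 averaged 80.4 ± 41.7 CPM at 30M and 18.6 ± 7.99 CPM at 6M (log2 change 2.11, SE 0.38, edgeR adjusted p = 0.0159). The sum of all 6 genes was 3510 to 3790 CPM at 30M and 3810 to 4270 CPM at 6M. Without Cbr2, which club cells of the airway also make, the sum was 126 to 254 CPM at 30M and 76.6 to 89.6 CPM at 6M. F13a1 is part of both sums. Lyve1 itself averaged 229 CPM at 30M and 263 CPM at 6M, and the macrophages' part in it was not tested. Without the 3 GC libraries 2 of the 6 rose, Timd4 and F13a1, and without 6M_202 alone F13a1 had a log2 change of 2.1 with an edgeR adjusted p of 0.0839.

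Of 5 erythroid markers 1 rose, Slc4a1, the anion exchanger of red cells, with 10.8 ± 6.48 CPM at 30M and 0.885 ± 0.524 CPM at 6M (log2 change 3.61, SE 0.78, edgeR adjusted p = 0.0358). Slc4a1 had a log2 change of 3.68 with an edgeR adjusted p of 0.0686 without the 3 GC libraries, and without 6M_203 alone 3.43 with an adjusted p of 0.214. Of 6 heart muscle markers 0 were called, and their sum varied from 260 CPM in 30M_218 to 1460 CPM in 30M_220. The part of heart muscle RNA in the Gja5 and Prox1 levels was not tested. Of 4 tested neuroendocrine markers 0 were called, with a median of -0.91. Of the sympathetic nerve markers, Th, Dbh and Npy had 1 to 2 counts in all 12 libraries together and were not tested, and the 1 that was tested was not called. The part of nerve RNA in the Slc6a2 level was not tested.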

How the data were processed

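The deposited table holds whole-number read counts per gene that the authors did not normalize. RNA was isolated with ISOGEN II and enriched for poly-A transcripts before paired-end Illumina sequencing, per the labels. Per the submitters' processing notes, FastQC 0.11.7, Trimmomatic 0.38, HISAT2 2.1.0 and featureCounts were used with GRCm38 (mm10). Neither the annotation release nor the strand setting is given in the sources used, so reads of overlapping or antisense genes cannot be told apart.

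The main test was edgeR's quasi-likelihood F test (edgeR 4.0.16 under R 4.3.3, robust fit, TMM, filterByExpr by age with a minimum count of 10). All 12 libraries entered 1 fit, and p-values were adjusted by Benjamini-Hochberg over 18407 genes. CPM used TMM, and log2 CPM a prior count of 2. DESeq2 1.42.0 and voom of limma 3.58.1 were alternatives, beside other filters and scalings, corrections for GC content and leaving out libraries. The fit without 4 libraries, 12M_208 among them, was chosen after seeing the data. Correlations used 100000 permutations, or all 1296 arrangements within ages where that is said. A check of the gene test on simulated counts was also run. Its outcome is not reported here, so nothing about the reliability of the tests is drawn from it. Libraries within an age differed by more than sampling noise (chi-square per gene 6.79 to 53), so none was treated as the same library sequenced again. This cannot show whether they came from different animals.

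GC content and exon length came from GENCODE M21, which holds 55227 of the 55487 identifiers, 99.42% of these with the same start and end. Coordinates are those of the deposited table.

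The members, gene lists and tests were chosen with earlier results of these data known. Beside the members, the text names up to 4 genes per list with the smallest joint p over the 4 ages. It also names the 3 genes most like each member, predicted genes left out, and genes in counts of 5 or fewer. Some genes that this rule names are not reported here. No sequence is printed.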

Additional observations from a re-analysis of the deposited data

How the results depend on the processing

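The count of members called stayed at 0 under all 22 alternatives for each of the 5 comparisons between pairs of ages, and under all 21 for the joint test. On the slope it was 1 (Sox17) with DESeq2, and it ranged from 0 to 1 when each library was left out in turn, with 1 (Sox17) without 30M_216. By Pearson's r the number of correlated pairs was 1 in the values reported and 1 with DESeq2 size factors. It was 2 without 20M_221, 20M_222 and 30M_220, and 2 after subtracting the mean of each age. The causes were not tested.

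Log2 changes at 30M against 6M kept their sign for Vwf (0.52 to 1.28), Slc6a2 (0.26 to 0.9), Ackr1 (0.93 to 2.35) and Sox17 (0.43 to 0.86) under all 22 alternatives. Estimates near 0 changed sign. Gja5, reported as 0, was -0.2 without 6M_203 and 0.15 without 6M_201. Bmx, reported as -0.03, was 0.08 when 20M_221, 20M_222 and 30M_220 got their own term, 0.09 without them, 0.04 with the GC trend removed, 0.1 without 4 libraries, and -0.21 to 0.09 with single libraries left out. Prox1 was -0.2 to 0.19 and Lyve1 -0.48 to 0.05 with single libraries left out. Mmrn1 was -0.02 with that same term and -0.03 to 0.23 with single libraries left out. Over all alternatives the smallest adjusted p of Sox17 at 30M against 6M was 0.0592.

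Of the genes named from lists, Ppbp was called in 22 of 22 alternatives, Gp1ba in 18, Ccl5, F13a1 and Sema3a in 17 each, Cxcl12 and Slc4a1 in 13 each, and Apln in 10. The call was lost without 6M_201 for Cxcl12, Ccl5, Slc4a1, Sema3a and Apln, without 6M_202 for Cxcl12, Ccl5, Gp1ba, F13a1, Slc4a1 and Apln, and without 6M_203 for Cxcl12, Ccl5, Gp1ba, F13a1, Slc4a1 and Sema3a. It was lost without 30M_216 for Cxcl12 and Apln, without 30M_218 for Cxcl12, Ccl5, Slc4a1, Sema3a and Apln, and without 30M_220 for Cxcl12, Gp1ba, Slc4a1, Sema3a and Apln. It was also lost without 20M_213 for Slc4a1 and Apln, without 20M_221 for Cxcl12, without 20M_222 for Apln, and without each 12M library for Apln. Calls among all genes fell in these fits too. At 30M against 6M edgeR called 361 genes in the main fit, and 217, 121 and 69 without 6M_201, 6M_202 and 6M_203. It called 276, 214 and 326 there without 30M_216, 30M_218 and 30M_220. On the slope it called 494 in the main fit, and 453, 366 and 234 without those 6M libraries in turn. Without those 30M libraries it called 463, 288 and 254 on the slope. The platelet count was 3 to 7 of 7 over all alternatives. With 3 libraries per age the 95% intervals are wide and are not adjusted over genes. No paired analysis was possible because the ages share no replicate numbers.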
